A study of Mus musculus with 7 samples.

Results

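The genes described here are the FoxO transcription factors Foxo1, Foxo3 and Foxo4 and 4 of their known targets, Txnip, Sesn3, Ccng2 and Rbl2. They were taken by symbol from a table of 33298 genes, and each of the 7 symbols matched 1 row. RNA sequencing was done on hematopoietic stem cells (HSCs) from mouse bone marrow. About 800 cells per library were sorted as Lin-Sca-1+c-Kit+CD48-CD150+ and amplified from polyA RNA with a low-input Smart-Seq V4 kit. All mice were 12 weeks old, carried homozygous floxed Dek alleles (Dekfl/fl) and were studied at homeostasis. The 4 Dek_fl libraries come from mice with no recombinase, and the 3 Dek_cKO libraries from mice that also carried Tie2-Cre, a recombinase active in endothelial as well as hematopoietic cells. The series' design text speaks of triplicates, but the labels give 4 Dek_fl libraries without marking any as extra, and all were used. The labels do not tie each library to its own animal, and the p-values below therefore rest on the spread among libraries, which may be technical. The question put to them was how loss of DEK, a chromatin-binding protein, alters HSC transcripts.

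FoxO proteins are forkhead transcription factors that growth factor signals hold in the cytoplasm: AKT phosphorylates them, and 14-3-3 proteins then keep them out of the nucleus. When that signal is low they enter the nucleus and switch on genes of cell cycle arrest, antioxidant defence and nutrient sensing. In mouse HSCs they are known for maintaining quiescence and limiting oxidative stress, with Foxo3 needed for long-term repopulation.

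Values are FPKM, fragments divided by transcript length and by the library's reads, so levels of different genes are set side by side per length. Most values gave back whole reads, 93.1% to 94.4% of those above 0 in a library at the annotated transcript length. With them came library totals from 4209151 to 26951515 reads in Dek_fl and from 4422644 to 12540429 reads in Dek_cKO. Each total is known to within a few reads. All 7 genes stood at whole reads in all 7 libraries at their annotated transcript length. Dek itself stood at 77, 118, 143 and 26 FPKM in the controls, and the Dek_cKO libraries were listed at 9.6, 8.4 and 12.7 FPKM (exact permutation test, two-sided over 35 splits, p = 0.0571). Its value in Dek_cKO replicate 3 stands for 405.8 reads, which is not whole. As an example only, 10 times that value would be 127 FPKM (p = 0.314, same exact test). The factor 10 was assumed, and whether the value is misstated was not tested. Dek_fl replicate 4 stood apart, with 8575 genes above 0 against 14291 to 19950 elsewhere, and with 101 of 1810 abundant genes listed at 0 against 9 to 45. Of the genes that define the sorted cells, Kit stood at 59.4 FPKM or more and Ly6a (Sca-1) at 88.7 or more in every library. Slamf1, which encodes CD150, was at 0 to 1.8 FPKM, and Cd48 was at 4.1 to 206 FPKM although the gate takes cells without CD48 protein. The summed level of 5 granulocyte markers was 128 to 1655 FPKM in Dek_fl and 103 to 7254 in Dek_cKO, highest in Dek_cKO replicate 3, where Elane alone was at 5393. The summed level of 3 megakaryocyte markers was 59.9 to 1166 FPKM in Dek_fl and 89.8 to 279 in Dek_cKO, and Pf4 was at 1055 in Dek_fl replicate 4. That of 4 endothelial markers was 1.05 to 16.8 FPKM in Dek_fl and 4.38 to 27.8 in Dek_cKO, most of it Emcn, while Cdh5 was listed at 0 in all Dek_fl libraries and was at most 0.34 in Dek_cKO. Kdr was at 7.82 FPKM in Dek_cKO replicate 2 and at 0 to 0.241 elsewhere. In Dek_cKO replicate 2, Flt1 was listed at 0, Cdh5 was at 0.34 and Emcn at 19.7 FPKM. Genes of lineage cells summed to 0.569 to 6.83 FPKM in Dek_fl and 0.58 to 51 in Dek_cKO, with Cd4 at 48.6 in Dek_cKO replicate 2, the library where Foxo1 and Sesn3 were highest. Erythroid markers, 4 genes, summed to 37 to 135 FPKM in Dek_fl and 28.5 to 105 in Dek_cKO. Of these, Hbb-bt was at 116 in Dek_fl replicate 4 and Klf1 at 70.6 in Dek_cKO replicate 1. The part of other cells in the results below was not tested.

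Foxo3 was the only FoxO gene above 1 FPKM in every library. Its gene spans 42181841 to 42276755 on the minus strand of chromosome 10 (GRCm38, as for all positions here). Dek_fl replicates 1 to 4 stood at 2.95, 2.57, 4.18 and 29.7 FPKM, and Dek_cKO replicates 1 to 3 at 10.1, 5.55 and 8.47 FPKM. The first 3 Dek_fl libraries lay below all Dek_cKO libraries, Dek_fl replicate 4 lay above them all, and the groups overlapped. These values rest on 85 to 919 reads, so counting error is small beside the differences. The 95% exact Poisson interval was 27.8 to 31.7 FPKM in Dek_fl replicate 4 and 3.89 to 4.49 in Dek_fl replicate 3, although replicate 3 was the deepest library. Such intervals cover counting error only, since reads without molecular identifiers are not independent molecules.

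Foxo4, on the plus strand of chromosome X (101254528 to 101260873), was found in some libraries and nearly missing in others. In Dek_fl it was at 3.91, 4.65, 0.141 and 0.14 FPKM, from 52, 230, 12 and 2 reads. In Dek_cKO it was at 2.82 FPKM, listed at 0, and at 0.0757 FPKM, from 53, 0 and 3 reads. Each group thus held both libraries with clear Foxo4 signal and libraries without it. The 0 of Dek_cKO replicate 2 allows up to 0.215 FPKM (3 reads), which is below Dek_cKO replicate 1.

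Foxo1, on the plus strand of chromosome 3 (52268336 to 52353221), was the least abundant of the paralogs in 5 of the 7 libraries. In Dek_fl it was at 0.493 FPKM in replicate 1 (18 reads), listed at 0 in replicates 2 and 3, and at 0.0255 FPKM in replicate 4 (1 read). In Dek_cKO it was listed at 0 in replicate 1 and stood at 2.61 FPKM in replicate 2 (100 reads) and 1.89 FPKM in replicate 3 (205 reads). The highest 2 values were both in Dek_cKO, but the lowest Dek_cKO value was 0 and the groups overlapped. In Dek_fl replicate 3, the deepest library, a floor of 3 reads stands at 0.0128 FPKM and the 95% exact Poisson upper limit at 0.0158. Because it reached 1 FPKM in 2 libraries only, Foxo1 did not pass the filter of the test across genes. Foxo6, the remaining FoxO gene, known mainly from brain, was at 0 to 0.605 FPKM.

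Foxo3 exceeded Foxo1 in 7 of 7 libraries. The mean difference within a library was 2.37 on the log2(FPKM + 1) scale (SD 1.39, n = 7, range 0.86 to 4.90; exact sign-flip permutation test, two-sided, p = 0.0156, the smallest p that 128 sign flips allow, and 0.0469 adjusted over 3 pairs). Where Foxo1 had more than 3 reads, Foxo3 was 5.98 times as high in Dek_fl replicate 1, 2.13 times in Dek_cKO replicate 2 and 4.49 times in Dek_cKO replicate 3. Foxo3 exceeded Foxo4 in 5 of 7 libraries, with a mean difference of 1.91 (SD 1.91, n = 7; exact test as before, p = 0.0625, adjusted p = 0.0938). Foxo4 was the higher of the pair in Dek_fl replicates 1 and 2. Foxo4 and Foxo1 did not differ beyond their spread, with a mean difference of 0.46 (SD 1.68, n = 7, range -1.85 to 2.50; exact test, p = 0.406, adjusted p = 0.406). With any 1 library left out, Foxo3 still exceeded Foxo1 in all of the other 6. The exact sign-flip p was 0.0312 each time, the smallest that 6 libraries allow, and the adjusted p was 0.0938. With the other pairs at larger p, it could not pass the threshold of 0.05 at any size of the difference.

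The share of each paralog in the summed FoxO FPKM shifted from library to library. Foxo3 made up 40.1%, 35.7%, 96.7% and 99.4% in Dek_fl replicates 1 to 4 and 78.1%, 68% and 81.2% in Dek_cKO replicates 1 to 3. Most of the rest was Foxo4 in Dek_fl replicate 1 (53.2%, with 6.71% Foxo1), and all of it was Foxo4 in Dek_fl replicate 2 (64.3%) and Dek_cKO replicate 1 (21.9%). It was mainly Foxo1 in Dek_cKO replicates 2 and 3 (32% and 18.1%). The difference of Foxo3 over Foxo1 averaged 2.63 in Dek_fl and 2.01 in Dek_cKO on the log2 scale, and exact permutation of the libraries between groups gave p = 0.6. For Foxo3 over Foxo4 the averages were 1.49 and 2.46 (exact permutation, p = 0.543).

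**Figure D1:**
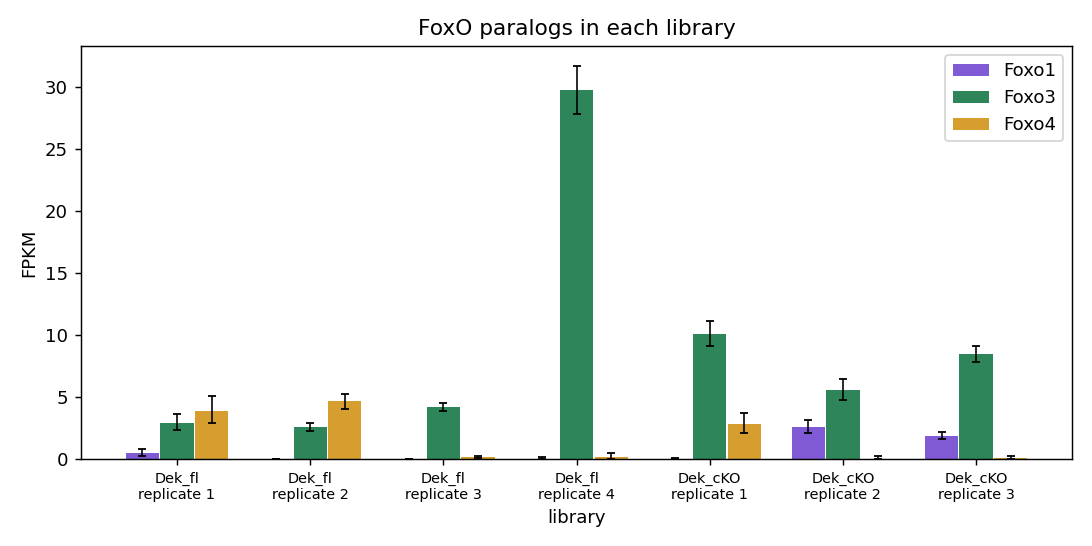
FPKM of Foxo1, Foxo3 and Foxo4 in each of the 7 libraries; bars are the deposited values and error bars are 95% exact Poisson intervals of the recovered reads. Foxo3 is above Foxo1 in every library and reaches 29.7 FPKM in Dek_fl replicate 4, while Foxo4 is the higher bar in Dek_fl replicates 1 and 2.

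Txnip was the most abundant of the 7 genes in every library. It encodes thioredoxin-interacting protein, which binds thioredoxin and lowers glucose uptake. Its gene is on the plus strand of chromosome 3 (96557957 to 96561883). Dek_fl stood at 91.9, 313, 229 and 213 FPKM and Dek_cKO at 128, 129 and 99.6 FPKM, from 1094 to 17454 reads. Between 0.577% and 3.2% of all genes in a library stood above it. Mean levels were 212 ± 91.1 FPKM (SD, n = 4) for Dek_fl and 119 ± 16.9 FPKM (SD, n = 3) for Dek_cKO. The Dek_cKO libraries lay close together and below Dek_fl replicates 2 to 4, while Dek_fl replicate 1 was the lowest of all. Its spread was small among these genes: the residual SD was 0.60 on the log2 scale, and 5.3% of tested genes had a smaller one. An antisense transcript, Gm15441, overlaps Txnip and was listed at 0 to 3.74 FPKM; the sources used here do not say whether strand was used in counting.

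The promoter of Txnip is shown because it was the one member promoter that held the letters of the FoxO core site. RefSeq promoter windows of GRCm38.p6 were found for 6 of the 7 genes, all but Foxo4, and the 250 bases before RefSeq's start were searched on both strands. For Ccng2 and Sesn3 that start lies inside the longer GENCODE gene, so their windows lie within the gene spans given here, and that of Foxo3 does in part. GTAAACA occurred in Txnip alone, once, beginning 121 bases before the start, and in 3.17% of all 32851 promoter windows of that length. The shorter core TTGTTT occurred in 18.3% of all windows, in Txnip (once on the other strand, overlapping GTAAACA) and in Ccng2 (2 adjacent matches on the other strand). Neither occurred in the windows of Foxo1, Foxo3, Sesn3 or Rbl2, which says only that these letters are not in those windows. CCAAT, the letters of the NF-Y site, occurred in 33.8% of all windows and once on each strand in Txnip, on either side of GTAAACA; Sesn3 held 4 matches and Foxo1 3. The Txnip sequence is chr3:96557707-96557956 and the Ccng2 sequence chr5:93267547-93267572, both on the plus strand and 5′ to 3′. Capitals mark GTAAACA in Txnip and AAACAA, the reverse complement of TTGTTT, in Ccng2.
Txnip: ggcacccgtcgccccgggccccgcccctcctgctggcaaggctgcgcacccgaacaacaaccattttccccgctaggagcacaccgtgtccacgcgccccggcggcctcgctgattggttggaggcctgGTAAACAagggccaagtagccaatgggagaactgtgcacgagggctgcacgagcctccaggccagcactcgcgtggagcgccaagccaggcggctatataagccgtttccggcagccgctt
Ccng2: gtcgcagactcaAAACAAAAACAAgg

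Ccng2, which encodes cyclin G2, an unconventional cyclin that slows the cell cycle, was second to Txnip in 4 libraries. Its gene is on the plus strand of chromosome 5 (93267257 to 93276231). The Dek_fl libraries gave 31.4, 7.77, 20.9 and 110 FPKM, and the Dek_cKO libraries 52.9, 15.4 and 2.83 FPKM. Both groups spread widely around each other, with means of 42.5 ± 45.9 FPKM (SD, n = 4) and 23.7 ± 26.1 FPKM (SD, n = 3). The lowest value, in Dek_cKO replicate 3, rests on 161 reads, with a 95% exact Poisson interval of 2.41 to 3.3 FPKM. Like Foxo3, Ccng2 was highest in Dek_fl replicate 4 and next highest in Dek_cKO replicate 1.

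Sesn3 encodes sestrin 3, which restrains mTORC1 through the GATOR complexes and has antioxidant activity. The gene is on the plus strand of chromosome 9 (14275067 to 14333101). Levels in Dek_fl were 6.46, 3.37, 6.26 and 0.0242 FPKM, and those in Dek_cKO were 4.05, 31.8 and 6.79 FPKM. Of the 7 libraries, 5 lay between 3.37 and 6.79 FPKM, and 1 library of each group set the extremes. Dek_fl replicate 4, where Foxo3 and Ccng2 were highest, had a single Sesn3 read, and Dek_cKO replicate 2 had 1283. The group means were 4.03 ± 3.02 FPKM (SD, n = 4) and 14.2 ± 15.3 FPKM (SD, n = 3). Of the other sestrins, Sesn1 was at 0.465 to 73.6 FPKM and Sesn2 was listed at 0 in 6 of 7 libraries.

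Rbl2 encodes p130, the pocket protein that with E2F4 and the MuvB core forms the DREAM complex and represses cell cycle genes in resting cells. The gene is on the plus strand of chromosome 8 (91070057 to 91123844). In the Dek_fl libraries the levels were 1.35, 0.0908, 27.1 and 20.9 FPKM, and in the Dek_cKO libraries 0.751, 0.459 and 8.63 FPKM. Libraries of both groups were either above 8 FPKM (Dek_fl replicates 3 and 4 and Dek_cKO replicate 3) or at 1.35 FPKM or less. Depth did not order these libraries: Dek_fl replicate 2, with 15653906 reads, gave 7 Rbl2 reads, and Dek_fl replicate 4, with 4521306, gave 466. The residual SD of Rbl2 on the log2 scale, 2.04, was the widest of the tested members, and 78.2% of tested genes had a smaller one. Its relatives were also uneven, with Rbl1 (p107) at 5.77 to 48.8 FPKM and Rb1 at 0.18 to 18 FPKM. The protein-coding gene Aktip overlaps Rbl2 on the opposite strand and stood at 0 to 29.3 FPKM; reads of the overlap may not be told apart.

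**Figure D2:**
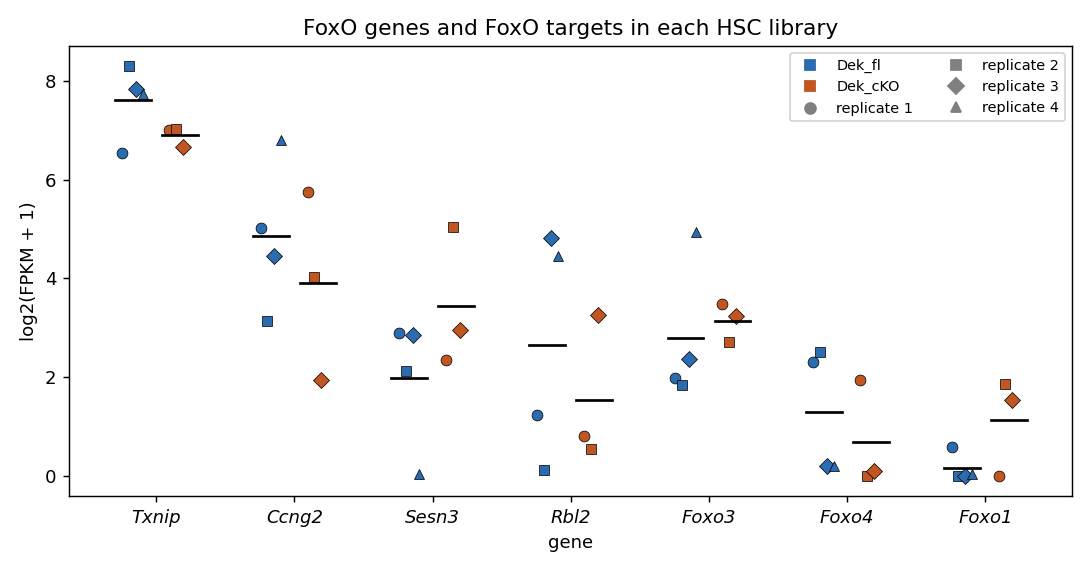
Level of each gene on the log2(FPKM + 1) scale in each library, coloured by group and with a marker for each replicate number; black lines are group means. Txnip is the highest gene in all 7 libraries, the groups overlap for every gene, and Rbl2 and Foxo4 each fall into high and low libraries within both groups.

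Poisson intervals of the reads were separate in most pairs of libraries. Over the 21 pairs of libraries, the 95% exact Poisson intervals were separate in 21 pairs for Ccng2, 20 for Foxo3, 19 for Txnip and Rbl2, 17 for Sesn3, 14 for Foxo1 and 13 for Foxo4, or 123 of 147 in all. Reads without molecular identifiers are not independent molecules, so separate intervals need not mean that RNA amounts differed. In bulk libraries such as these, fewer cells that express a gene, less RNA per cell and transcripts lost in amplification cannot be told apart.

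No member was called higher or lower in Dek_cKO. Across the table, limma on log2(FPKM + 1) called 0% of 10260 tested genes at an adjusted p of 0.05. At an unadjusted p under 0.05, limma gave 2.12% of genes higher and 1.81% lower, and 0 of the 6 members it tested. By limma-voom, on those of the 10260 genes with recovered reads, 0 passed as well, and 543 had an unadjusted p under 0.05 in either direction. Of the 6 tested members, 2 had a positive and 4 a negative log2 fold change, with a median of -0.66 against 0.05 over all tested genes. The groups overlapped for each of the 7 members, where 4.94% of tested genes had groups without overlap. Each of the 6 had an adjusted p of 0.9999 by limma.

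The smallest unadjusted p among them was that of Txnip, with a log2 fold change of -0.71 (SE 0.60, 95% interval -1.97 to 0.55; limma p = 0.254, exact permutation p = 0.2). By voom the unadjusted p of Txnip was 0.0551. For Sesn3 the log2 fold change was 1.46 (95% interval -1.30 to 4.23; exact permutation p = 0.286), and it was 0.67 without Dek_cKO replicate 2, 0.82 without Dek_fl replicate 4 and 2.24 with a pseudocount of 0.1. For Ccng2 it was -0.94 (-3.49 to 1.61; exact permutation p = 0.486), and it turned to 0.05 without Dek_cKO replicate 3 and was -1.86 without Dek_cKO replicate 1. For Rbl2 it was -1.12 (-4.09 to 1.86; exact permutation p = 0.486), between -1.98 and -0.40 with 1 library left out. Each of these intervals includes 0 and reaches below -1, and those of Sesn3, Ccng2 and Rbl2 also reach above 1, so changes of that log2 size lie within the error.

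Among the paralogs, Foxo3 had a log2 fold change of 0.36 (SE 1.29, 95% interval -2.34 to 3.05; exact permutation p = 0.771). With 1 library left out it ranged from 0.04, without Dek_fl replicate 2, to 1.08 (SE 1.20, -1.47 to 3.62; limma adjusted p = 0.987), without Dek_fl replicate 4. It was also 0.09 without Dek_fl replicate 1 and 0.19 without Dek_cKO replicate 1. Without Dek_fl replicate 4, the other Dek_fl libraries averaged 3.24 ± 0.841 FPKM (SD, n = 3), all below the Dek_cKO libraries at 8.02 ± 2.29 FPKM (SD, n = 3). Without that library 10.7% of tested genes had groups that did not overlap, and the exact permutation p of 0.1 is the smallest that 20 splits allow. Foxo4 had a log2 fold change of -0.61 (SE 0.90, -2.49 to 1.26; exact permutation p = 0.514), from -1.24 to -0.21 with 1 library left out and -1.91 by voom. For Foxo1 the difference of group means on the log2(FPKM + 1) scale was 0.97 (exact permutation p = 0.257), and without a filter on low values limma gave it an adjusted p of 0.696.

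**Figure D3:**
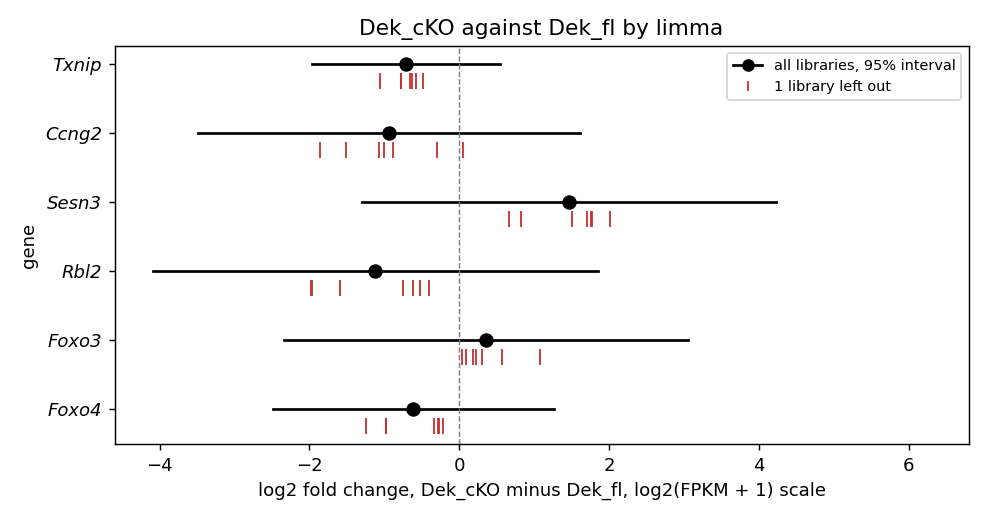
Log2 fold change of Dek_cKO against Dek_fl for the 6 tested members by limma, with the 95% interval as a line, and below it a red tick for the value with each library left out. Every interval includes 0, and the ticks of Ccng2 reach from -1.86 to 0.05.

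The genes around the FoxO factors gave no call in any of 8 lists. For the counts of every list below, the share over all tested genes was 2.12% higher and 1.81% lower at an unadjusted p under 0.05. The median log2 fold change over all tested genes was 0.05. Among the regulators of FoxO proteins, 35 of 38 genes were tested, 0 passed the adjusted threshold, and 0 were higher and 1 lower at an unadjusted p under 0.05 (limma; median log2 fold change -0.13). The lower gene was Ywhaq, a 14-3-3 protein, which stood at 346, 289, 370 and 203 FPKM in the controls and at 188, 20 and 162 FPKM in Dek_cKO. Its log2 fold change was -1.77 (SE 0.70), and -0.75 without Dek_cKO replicate 2. Pik3cb, a catalytic PI3K subunit, was next at -1.90 (SE 1.02). Akt1, Akt2 and Pik3r1 of this list have values that are not whole reads in at least 1 library.

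Of 34 other FoxO targets 29 were tested, with 0 higher and 1 lower at an unadjusted p under 0.05 (median 0.19). The lower gene was Map1lc3b, of autophagosomes, with 57.6, 143, 172 and 52 FPKM in the controls and 8.2, 13.6 and 86.8 FPKM in Dek_cKO (log2 fold change -2.05, SE 0.92). Cdkn1a, the CDK inhibitor p21, had -2.60 (SE 1.33), with values in 6 libraries that are not whole reads.

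The RB family and the DREAM complex, with 14 of 14 tested, had none at an unadjusted p under 0.05 (median 0.27). The corepressor Sin3b was at -2.31 (SE 1.16), and at -0.98 without Dek_cKO replicate 2, and the E2F partner Tfdp1 was at -1.24 (SE 0.69). The cell cycle genes that DREAM represses, with 16 of 18 tested, had 1 higher and 0 lower (median 0.28). The higher gene was Rrm2, of ribonucleotide reductase, at 3.78 (SE 1.29), but its values in 4 libraries are not whole reads. The mitotic cyclin Ccnb2 was at 1.46 (SE 0.83), and at 0.69 without Dek_fl replicate 4.

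Partners and relatives of TXNIP, with 12 of 14 tested, had 1 higher and 1 lower at an unadjusted p under 0.05 (median 0.20). The lower gene was Slc2a1, the glucose transporter that TXNIP helps to remove from the cell surface. Control libraries stood at 37.5, 22, 54.6 and 0.611 FPKM, and Dek_cKO libraries were listed at 0, 0 and 0.514 FPKM (log2 fold change -3.87, SE 1.40, limma adjusted p = 0.9999). The groups did not overlap, as for 4.94% of all tested genes, and Dek_fl replicate 4 lay close to Dek_cKO. The higher gene was Txnrd1, thioredoxin reductase, at 2.80 (SE 1.08), with values in 6 libraries that are not whole reads. The list of sestrins and GATOR genes, which also holds Rraga, Rragc, Keap1 and Sqstm1, had none among 11 of 14 tested (median 0.00). Nprl2 of GATOR1 was at -2.82 (SE 1.36) and Mios of GATOR2 at 2.61 (SE 1.37).

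Genes of HSC quiescence, with 17 of 20 tested, had 1 higher, Btg2 at 2.88 (SE 1.30), and 1 lower, Gata2 at -2.56 (SE 0.93), with a median of -0.13. Both have values that are not whole reads, in 6 and 2 libraries. Among the close relatives of the members, 6 of 8 tested, none had an unadjusted p under 0.05 (median 0.32). The arrestin-domain gene Arrdc4 was at 2.25 (SE 1.41), and the other cyclin G gene, Ccng1, at 1.90 (SE 1.25), with values in 4 libraries that are not whole reads.

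**Figure D4:**
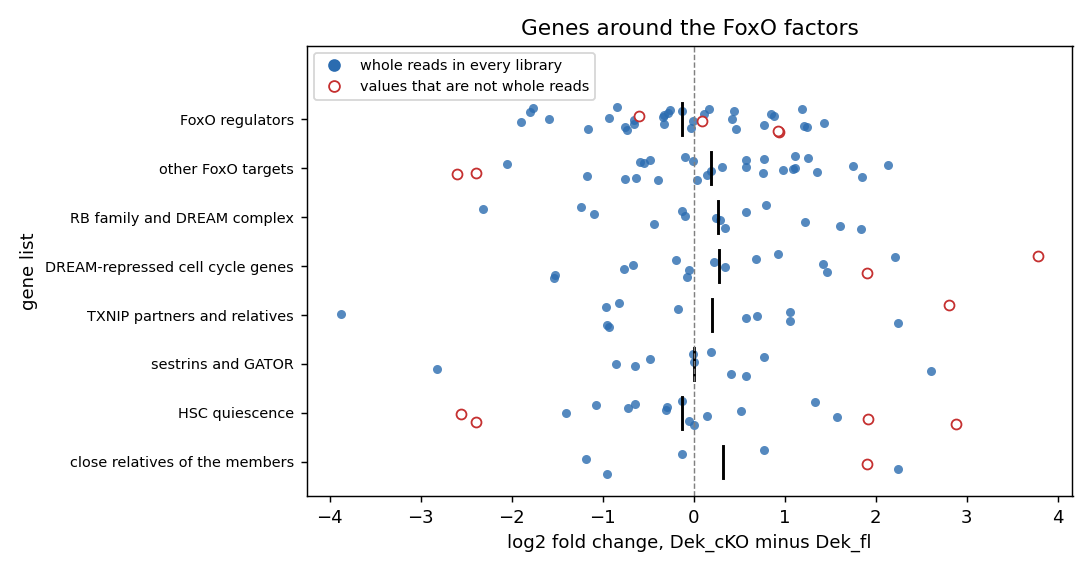
Log2 fold change of Dek_cKO against Dek_fl for each tested gene of the 8 lists; filled points have whole reads in all libraries, open red points do not, and black bars are list medians. The medians lie between -0.13 and 0.32, and the open points include Rrm2 at 3.78, Btg2 at 2.88 and Txnrd1 at 2.80.

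The genes most like each paralog over the 7 libraries, by Pearson's r of log2(FPKM + 1) among 7544 tested genes, are given as a description. For Foxo3 they included Rnf20 (r = 0.979) and Lat (r = 0.978), each highest in Dek_fl replicate 4, Rnf20 at 89.2 FPKM there against 7.76 to 26 elsewhere. For Foxo4 they were Sec23a (r = 0.972), H2-T24 (r = 0.939) and Tbl1x (r = 0.932), each with its highest levels in Dek_fl replicates 1 and 2. For Foxo1 they were Ly9 (r = 0.982), Trmt112 (r = 0.974) and Cdyl2 (r = 0.962), each highest in Dek_cKO replicate 2. The points share libraries and their depth, and the best of 7544 genes over 7 points is high by selection.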

How the data were processed

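The authors deposited 1 table of FPKM with a column per library, and all columns were mapped to samples by title. The submitters' processing notes name HTSeq, Cufflinks 2.1.1 and Bowtie 0.12.9 and the build mm10. Which tool did which step, and which annotation was used, is not given in the sources used here. Positions and transcript lengths are from GENCODE M21 (GRCm38), which matched 99.9% of gene identifiers.

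Library totals were those for which FPKM times longest transcript length gave mostly whole reads, within rounding to 4 decimals plus 0.003 reads. Other lengths were tried for genes of the lists. Genes that reached 1 FPKM in 3 or more libraries were tested with limma 3.58.1 (R 4.3.3) on log2(FPKM + 1), with trend and robust moderation and Benjamini-Hochberg adjustment over 10260 genes. Fold changes on this scale understate low genes. Exact tests were two-sided (scipy 1.17.1) and were not adjusted over the members. The limma and read recovery steps were tested on simulated data.

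Named genes are the members, Dek, the 2 genes of smallest p per list, and the 3 of highest r per paralog (mean of at least 5 FPKM), with cell type markers and close relatives from the lists; overlapping genes and others were named after their values were seen. A few genes chosen this way are not reported here. The members and lists were chosen with earlier results of these data known.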

Additional observations from a re-analysis of the deposited data

Results flagged for a closer look

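Foxo3 in Dek_fl replicate 4, at 29.7 FPKM, stood apart from the other Dek_fl libraries (2.57 to 4.18 FPKM). Its gap to the nearest library was 0.941 of the range of the group, above Dixon's 95% critical value for 4 samples. On the log2(FPKM + 1) scale the gap was 0.827 of the range. Foxo1 in Dek_fl replicate 1, at 0.493 FPKM and 18 reads, stood apart from 0, 0 and 0.0255 FPKM, with a gap of 0.948 of the range. On the log2 scale it was 0.937, and the gap of Foxo3 fell short of the critical value there. The other 5 members did not pass it on the FPKM scale. Chance flags about 1 in 20 groups if values are normally distributed. FPKM values at or near 0 need not be, so the rate here is not known.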

How the results depend on the processing

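The count of genes past an adjusted p of 0.05 was 0 under every alternative run: pseudocounts of 0.1 and 0.5, no filter, a filter of 5 FPKM, TPM rescaling, quantile normalization, median-of-ratios scaling, no trend or robust moderation, array weights, a replicate block, voom on recovered reads, and each library left out (smallest adjusted p 0.159, by voom). Of 107 alternative values of the members, 106 kept their sign and 1 did not: Ccng2 was 0.05 without Dek_cKO replicate 3, where its values with 1 library left out ran from -1.86 to 0.05. The cause of that change was not tested. Some of the 106 could not differ: the filters and the run without trend or robust moderation leave a fold change as it is. The replicate block repeats the fold changes found without Dek_fl replicate 4. The difference of Foxo3 over Foxo1 kept its sign and was 1.94 to 2.62 with 1 library left out. The exact sign-flip p was 0.0312 each time, the smallest possible then, and the adjusted p was 0.0938. The difference was 4.32 with a pseudocount of 0.1. No label says that a replicate number marks a shared animal, litter or day. Deviations of same-numbered libraries correlated at -0.03, -0.073 and 0.045, and those of other pairs at -0.083 to 0.072. Such values cannot exclude that some libraries share a day or litter. With the replicate block, which leaves out Dek_fl replicate 4, the log2 fold change was 1.08 for Foxo3, -0.98 for Foxo4, -0.66 for Txnip, 0.82 for Sesn3, -0.29 for Ccng2 and -0.52 for Rbl2, and 0 genes were called. Foxo1 and Foxo4 had 3 reads or fewer in 4 and 3 libraries, which do not follow depth: Foxo1 had 0 reads in the 2 deepest.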
